A study of Mus musculus with 4 samples.

Results

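The transcripts described here end in alternative last exons: 3313 genes of the mouse retina whose multi-exon isoforms finish in 2 or more last exons that do not overlap on the genome. They were selected from the isoform models by structure, and a model existed only for isoforms with at least 1 rod count. Last exons found only in isoforms without rod counts therefore entered no comparison. A gene qualified when it carried an Ensembl identifier, had 2 or more models with more than 1 exon, and had strand-aware last exons that fell into 2 or more separate groups. The 3313 members were drawn from 13452 Ensembl genes in the count table and made up 42.3% of the 7826 genes with 2 or more multi-exon models. For each member the isoform counts were added up within each last-exon group, and the share of each group in the gene's counts was compared among 6 cell classes. In these comparisons the gene's counts are those of its multi-exon models, without single-exon models and isoforms that had no model. Last exons are numbered along the gene, so that last exon 1 is the most proximal to the promoter.

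The counts came from nanopore long reads of single-cell cDNA from the retinas of wild-type mice, all males of C57BL6/J, in 4 libraries. No enrichment was applied to 2 of them, 1 taken at postnatal day 40 and the other without an age in the labels. The third was labelled CD73 enrichment and was taken at postnatal week 8, and the fourth was labelled CD90.2 enrichment and was taken at postnatal month 4. The protocol describes removal of CD73-positive photoreceptors and positive magnetic selection of CD90.2 cells, both after papain dissociation, whereas the design text names flow sorting. The count table has a single column each for rods, cones, bipolar cells, Müller glia, amacrine cells and retinal ganglion cells, pooled over the libraries, and its columns name no library. Each class was therefore 1 sample: age, enrichment and class cannot be told apart, no test between classes was possible, and all intervals given are exact 95% Clopper-Pearson intervals that cover counting error only.

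The columns held between 3509890 counts for ganglion cells and 55437340 for rods. All 36 marker genes of the 6 classes were highest in their own column. Markers of other classes were present as well. Summed rod markers in the cone column reached 20.4% of their level in the rod column, and in the ganglion cell column they had 0 counts. In the amacrine column the summed level of 6 amacrine markers was 1100 CPM (counts scaled to the same total in each column), beside 1120 for 6 Müller glia markers and 693 for 6 ganglion cell markers. The Müller glia column held 8810 CPM of 3 pigment epithelium markers and 924 of 4 microglia markers. The part of these other cells in the values that follow was not tested.

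An alternative last exon is used when a transcript is spliced to, or read through into, a different terminal exon that is cleaved and polyadenylated at its own site. The choice changes the 3′ untranslated region and often the last amino acids of the protein, which can carry a lipid anchor, a sorting signal or a binding site. Neurons are known for many such choices, and RNA-binding proteins together with the cleavage and polyadenylation machinery that reads the hexamer AAUAAA set them.

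The structure of the groups was varied. Of the 3313 members, 2002 had 2 last-exon groups, 784 had 3, 301 had 4 and 226 had 5 or more, up to 13 in Dnah9, a dynein heavy chain. Together they formed 8878 groups with 6229065 counts, a median of 299 counts per gene. The second most abundant last exon held a median of 20.2% of a gene's counts, and it held 20% or more in 1687 members. A spliced last exon, with its own acceptor and no overlap with an internal exon of another model, accounted for 5014 groups (56.5%) and for 80.7% of the counts. Another 3745 groups (42.2%) began as an internal exon of another model, at the same acceptor, and they carried 18.8% of the counts. Whether these groups ran on past the donor site of that exon was not tested. The remaining groups lay within an internal exon (19) or overlapped one in another way (100).

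These kinds of last exon differed in their annotation and in the sequence at the 3′ end. The acceptor was that of an annotated last exon in 76.3% of spliced groups and in 31.4% of those that began as an internal exon. The model ended within 50 nt of an annotated 3′ end in 50.3% and 11.7% of them. A poly(A) signal, AATAAA or ATTAAA on the transcribed strand in the last 50 nt, was found in 1635 of 2035 spliced groups that ended at an annotated transcript end (80.3%). It was found in 161 of 350 groups that began as an internal exon (46.0%) and in 49.3% of 49479 distinct ends of annotated coding transcripts with more than 1 exon. Among spliced groups, 75.7% of 551 proximal and 82.1% of 1484 most distal last exons held it. The ends of the 2 most abundant last exons of a gene lay a median of 16722 nt apart.

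The sequences below are the coding parts of last exons, from the acceptor to the stop codon, for genes whose coding end changed between classes. They are given 5′ to 3′ on the transcribed strand, read from the GENCODE M21 transcripts of GRCm38, with the stop codon in capitals. Cdc42 encodes a small GTPase that organizes actin and cell polarity. Its last exons are chr4:137321762-137322619 and chr4:137319696-137321192 on the minus strand. The proximal exon is the one known from the brain form of the protein.
Cdc42 last exon 1: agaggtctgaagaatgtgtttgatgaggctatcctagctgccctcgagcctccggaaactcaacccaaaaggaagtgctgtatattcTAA
Cdc42 last exon 2: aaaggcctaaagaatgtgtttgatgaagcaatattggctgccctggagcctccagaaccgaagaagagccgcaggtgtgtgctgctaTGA
Both parts are 90 nt long and were identical at 66 of 94 aligned positions (70.2%). They end in different stop codons after different codons for the membrane-anchoring tail.

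The tropomyosins, coiled-coil proteins that lie along actin filaments, exchange their C-terminal exon in the same manner. The last exons are chr4:43515682-43516003 and chr4:43514711-43514861 (minus strand) for Tpm2, chr3:90098375-90098783 and chr3:90099528-90100902 (plus strand) for Tpm3, and chr9:67027966-67028167 and chr9:67024180-67024565 (minus strand) for last exons 2 and 3 of Tpm1.
Tpm2 last exon 1: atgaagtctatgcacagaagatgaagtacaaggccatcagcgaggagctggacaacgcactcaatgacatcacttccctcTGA
Tpm2 last exon 2: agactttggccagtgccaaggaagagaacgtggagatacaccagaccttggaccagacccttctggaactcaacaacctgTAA
Tpm3 last exon 1: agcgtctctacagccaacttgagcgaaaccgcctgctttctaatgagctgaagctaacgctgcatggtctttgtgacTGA
Tpm3 last exon 2: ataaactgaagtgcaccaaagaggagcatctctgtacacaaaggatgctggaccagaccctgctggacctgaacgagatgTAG
Tpm1 last exon 2: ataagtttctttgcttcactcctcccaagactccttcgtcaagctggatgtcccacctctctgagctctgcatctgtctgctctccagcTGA
Tpm1 last exon 3: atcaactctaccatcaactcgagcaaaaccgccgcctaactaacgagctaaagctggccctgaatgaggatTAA
Within a gene the 2 coding ends shared 55.1% of aligned positions in Tpm2, 51.7% in Tpm3 and 47.3% in Tpm1. Between genes, last exon 3 of Tpm1 and last exon 1 of Tpm3, both of the type known from brain, shared 66.2%, and last exon 2 of Tpm2 and last exon 2 of Tpm3 shared 64.4%.

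Further pairs of coding ends were those of Syngr1, which encodes the synaptic vesicle membrane protein synaptogyrin 1 (chr15:80113166-80113441 and chr15:80115855-80116265, plus strand), and of Fgfr1op2, which encodes a coiled-coil protein (chr6:146592634-146592865 and chr6:146597295-146599198, plus strand). The third pair is that of Calca (chr7:114633293-114633785 and chr7:114631478-114631905, minus strand), in which last exon 1 encodes calcitonin and last exon 2 is the untranslated end of the mRNA of calcitonin gene-related peptide.
Syngr1 last exon 1: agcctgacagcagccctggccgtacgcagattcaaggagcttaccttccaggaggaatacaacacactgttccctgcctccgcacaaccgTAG
Syngr1 last exon 2: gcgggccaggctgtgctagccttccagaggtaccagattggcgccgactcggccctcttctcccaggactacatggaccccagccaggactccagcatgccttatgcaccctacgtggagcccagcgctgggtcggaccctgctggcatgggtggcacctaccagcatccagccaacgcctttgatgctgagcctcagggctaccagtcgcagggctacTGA
Fgfr1op2 last exon 1: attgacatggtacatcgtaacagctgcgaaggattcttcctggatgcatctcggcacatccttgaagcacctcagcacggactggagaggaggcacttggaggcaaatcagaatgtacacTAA
Fgfr1op2 last exon 2: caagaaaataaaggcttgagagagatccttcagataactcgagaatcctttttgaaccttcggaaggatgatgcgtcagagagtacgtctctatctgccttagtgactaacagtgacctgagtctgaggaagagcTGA
Calca last exon 1: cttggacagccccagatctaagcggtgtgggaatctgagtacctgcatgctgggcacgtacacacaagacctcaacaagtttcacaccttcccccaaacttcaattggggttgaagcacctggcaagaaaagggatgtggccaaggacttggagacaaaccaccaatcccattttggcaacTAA
The parts of Syngr1 were 93 and 222 nt long and identical at 35.6% of aligned positions, and those of Fgfr1op2 were 123 and 138 nt long and identical at 76 of 152.

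The next sequences are the ends of the annotated transcripts of 5 of the genes, from 2 nt before the poly(A) signal, in capitals, to the 3′ end or, in last exon 2 of Cdc42 and of Calca, over the first 30 nt of that stretch. The deposited model of each of these last exons ended within 50 nt of that position.
Cdc42 last exon 1: aaATTAAAaatatacaattgtttgtataaa
Cdc42 last exon 2: gtATTAAAcaaacaaaacccttcacaagtg
Tpm3 last exon 1: acAATAAAagcactgacttgacaa
Tpm3 last exon 2: gaAATAAAgaaccagtccctccacgatca
Fgfr1op2 last exon 1: caAATAAAtggaatcaatgaaag
Fgfr1op2 last exon 2: tcAATAAAgatgagtgtttaaaactgg
Calca last exon 1: gaAATAAAactattttttaaaaa
Calca last exon 2: aaATTAAAaacaaatgtattttcaatatcc
Hnrnpa1 last exon 1: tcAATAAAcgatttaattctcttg
Hnrnpa1 last exon 2: taAATAAActttttaattaa
AATAAA was present in both last exons of Tpm3, Fgfr1op2 and Hnrnpa1, and ATTAAA in both of Cdc42. The 2 ends of Calca carried different hexamers.

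Class comparisons used members with 50 or more counts in both columns, which 1846 genes had for at least 1 pair of classes. The other 1467 members were not compared. At the edge of this limit, 131 members had 50 to 59 counts in their second-highest column and 190 had 40 to 49. A last exon was said to differ when its share changed by 25 percentage points or more. By this rule of size 748 of the 1846 genes (40.5%) differed between some pair of classes. In every one of the 748 at least 1 such pair had intervals that did not overlap. These intervals come from the counts that chose the genes and cover counting error only, so they are no separate support. In 240 genes (13.0%) the leading last exon itself differed, with a change of 50 points or more, and in 68 of these both leaders were annotated spliced last exons. Each of the 2 leaders had its own annotated stop codon in 29 of the 68. Here and below, annotated spliced last exons include groups that overlapped an internal exon in another way than lying within it or starting at its acceptor. The median of the largest difference was 19.5 points over all genes compared.

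The number of genes that differed changed with the columns and the depth, as did the number compared. It was 417 of 1515 genes without the amacrine column, 162 of 532 after all columns were thinned to the total of the ganglion cell column (means of 5 draws), and 263 of 742 when groups within or starting as an internal exon were left out.

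Among the 15 pairs of classes, which share columns and are not independent, last exons differed least often between cones and rods. There 57 of 659 genes differed (8.65%, interval 6.62 to 11.1%), followed by bipolar cells and cones with 67 of 637 (10.5%) and amacrine and ganglion cells with 39 of 365 (10.7%). Amacrine cells and rods were at the other end, with 408 of 1452 genes (28.1%, 25.8 to 30.5%). Amacrine cells differed from cones in 24.8% of genes, from Müller glia in 24.3% and from bipolar cells in 23.7%. Ganglion cells differed from bipolar cells in 23.7%, from cones in 23.6% and from rods in 23.5%. Müller glia differed from ganglion cells in 19.8% of genes, from rods in 15.8%, from bipolar cells in 15.6% and from cones in 14.7%. For bipolar cells and rods the value was 17.0%. Last exons without any rod count had no model and are not part of these values.

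The same 3 pairs were lowest when the gene set was held constant. Over the 248 members with 50 counts in all 6 columns, 3.63% differed between cones and rods, 6.05% between bipolar cells and cones and 6.85% between amacrine and ganglion cells, against 20.2% between cones and ganglion cells and 14.9% between amacrine cells and rods. After thinning to equal totals these 3 values were 4.84, 7.52 and 7.34%, and without groups within or starting as an internal exon they were 5.71, 7.79 and 7.93%. The highest pair was not the same throughout. Over the 248 members it was cones and ganglion cells. After thinning it was bipolar and ganglion cells, with 21.1% against 18.4% between amacrine cells and rods. Without groups within or starting as an internal exon it was again amacrine cells and rods (26.1%). The cone column shared rod markers and the amacrine column shared ganglion cell markers, as given above, and the part of this in the low values was not tested.

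**Figure D1:**
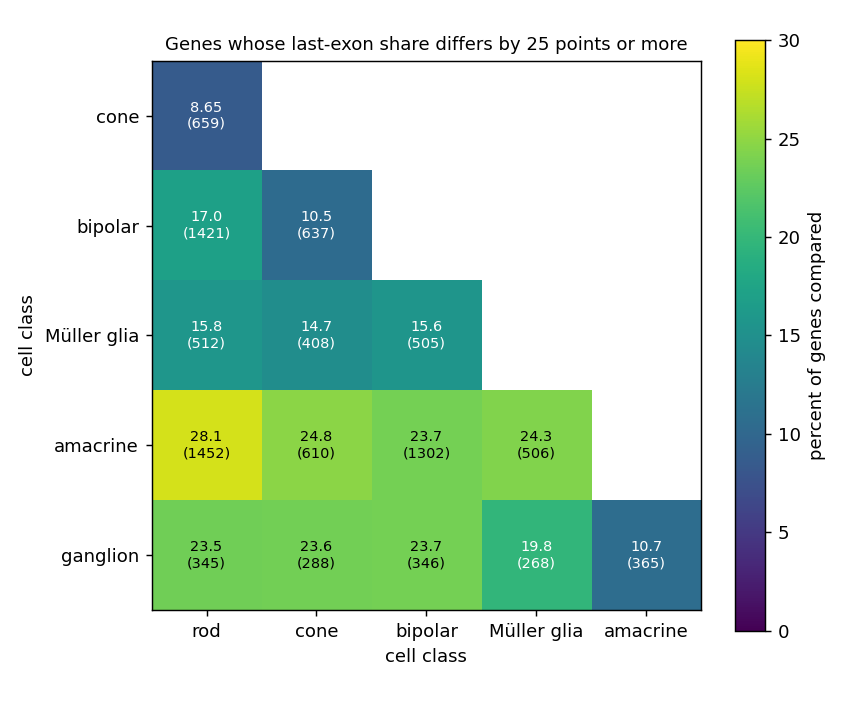
Each cell gives the percentage of genes whose last-exon share differed by 25 points or more between the class of its row and that of its column, with the number of genes compared in parentheses. The lowest value is that of cones and rods (8.65%) and the highest that of amacrine cells and rods (28.1%).

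Most genes with enough counts in every class kept the same leading last exon. Of the 248 members, 190 had 1 leader in all 6 columns. Müller glia alone had another leader in 11 (Asph, Atat1, Cmss1, Copg2, Fgfr1op2, Hsp90aa1, Mxra7, Rbm5, Slc35b2, Tbce and Vps53). Amacrine and ganglion cells together were separated from the other 4 classes in 9 (Acbd6, Amz2, Capza1, Dynlt1a, Hnrnpa1, Rab10os, Srsf10, Tmx3 and Zfp286), where Srsf10 was an exact tie of 98 against 98 counts in ganglion cells. Amz2 was near a tie in Müller glia (61 against 64 counts), and the leader of Acbd6 in ganglion cells held 53.4% (48.6 to 58.2%). Ganglion cells alone had another leader in 7 genes, among them Camk2d, a calcium/calmodulin-dependent kinase subunit, and Ewsr1, an RNA-binding protein. Rods alone had another leader in 5, and cones and rods were separated from the rest in 3 (Mpped2, Rsph3b and Slc35a2). Müller glia and rods were separated from the rest in 2, Cdc42 and Lamp2, although cones were near a tie in both (539 against 537 counts, and 51 against 48). The class farthest from the mean of the others, by 25 points or more, was the ganglion cell class in 23 of the 248 genes, Müller glia in 16, amacrine and bipolar cells in 6 each, rods in 5 and cones in 4. The ganglion cell column was also the smallest.

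Cdc42 and the tropomyosins were among the genes whose coding end changed. The proximal, brain-type last exon of Cdc42 held 92.7% of the counts in ganglion cells (91.6 to 93.7%, 2462 counts) and 84.4% in amacrine cells. It held 67.8% in bipolar cells, 50.1% in cones (47.1 to 53.1%, 1076 counts) and 30.6% in rods. In Müller glia it held 3.8% (2.96 to 4.79%, 1791 counts). None of the 6 intervals overlapped, so that the classes fell in an order from ganglion cells, the highest, to Müller glia, with photoreceptors between the inner neurons and the glia.

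Tpm3 showed a similar range, with its proximal exon at 78.3% in ganglion cells (74.9 to 81.5%, 632 counts), 65.5% in bipolar cells and 47.1% in amacrine cells. The share was 42.5% in cones (32.9 to 52.4%, 106 counts), 17.1% in rods and 9.84% in Müller glia (7.39 to 12.8%, 508 counts). Bipolar and ganglion cells were led by the proximal exon and the other 4 classes by the distal one, and amacrine cells and cones were not separated by their intervals. When only isoforms with an Ensembl identifier were used, the difference in Tpm3 between Müller glia and ganglion cells became larger, at -96.9 points for the proximal exon. In Tpm2 the proximal exon held 99.0% in amacrine cells (97.2 to 99.8%, 310 counts), 54.0% in rods (40.9 to 66.6%, 63 counts) and 26.2% in cones (15.8 to 39.1%, 61 counts). It held 9.93% in bipolar cells and 2.04% in Müller glia (1.02 to 3.62%, 540 counts), and ganglion cells had 0 counts of the gene. Amacrine cells and Müller glia thus used almost entirely opposite last exons of Tpm2, while the rod column held counts of both. These were 63 counts in a column of 55437340, and the part of other cells in them was not tested. The annotated last exon 1 of Tpm2 runs on 970 nt past the end of the deposited model, to the end of last exon 2.

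Tpm1 varied less. Its brain-type last exon 3 held 63.4% of the counts in amacrine cells, 63.2% in ganglion cells and 61.5% in bipolar cells, against 47.6% in rods (43.1 to 52.1%) and 36.7% in cones (26.1 to 48.3%, 79 counts). Last exon 2 was similar in all 5 classes, from 30.8% in rods to 38.0% in cones. The gap was filled by last exon 1, which begins as an internal exon and does not end at an annotated 3′ end: it held 25.3% in cones and 21.6% in rods, 1.28% in bipolar cells, and 0 of 2866 counts in amacrine cells, which allows up to 0.129%. Müller glia had too few Tpm1 counts (13).

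**Figure D2:**
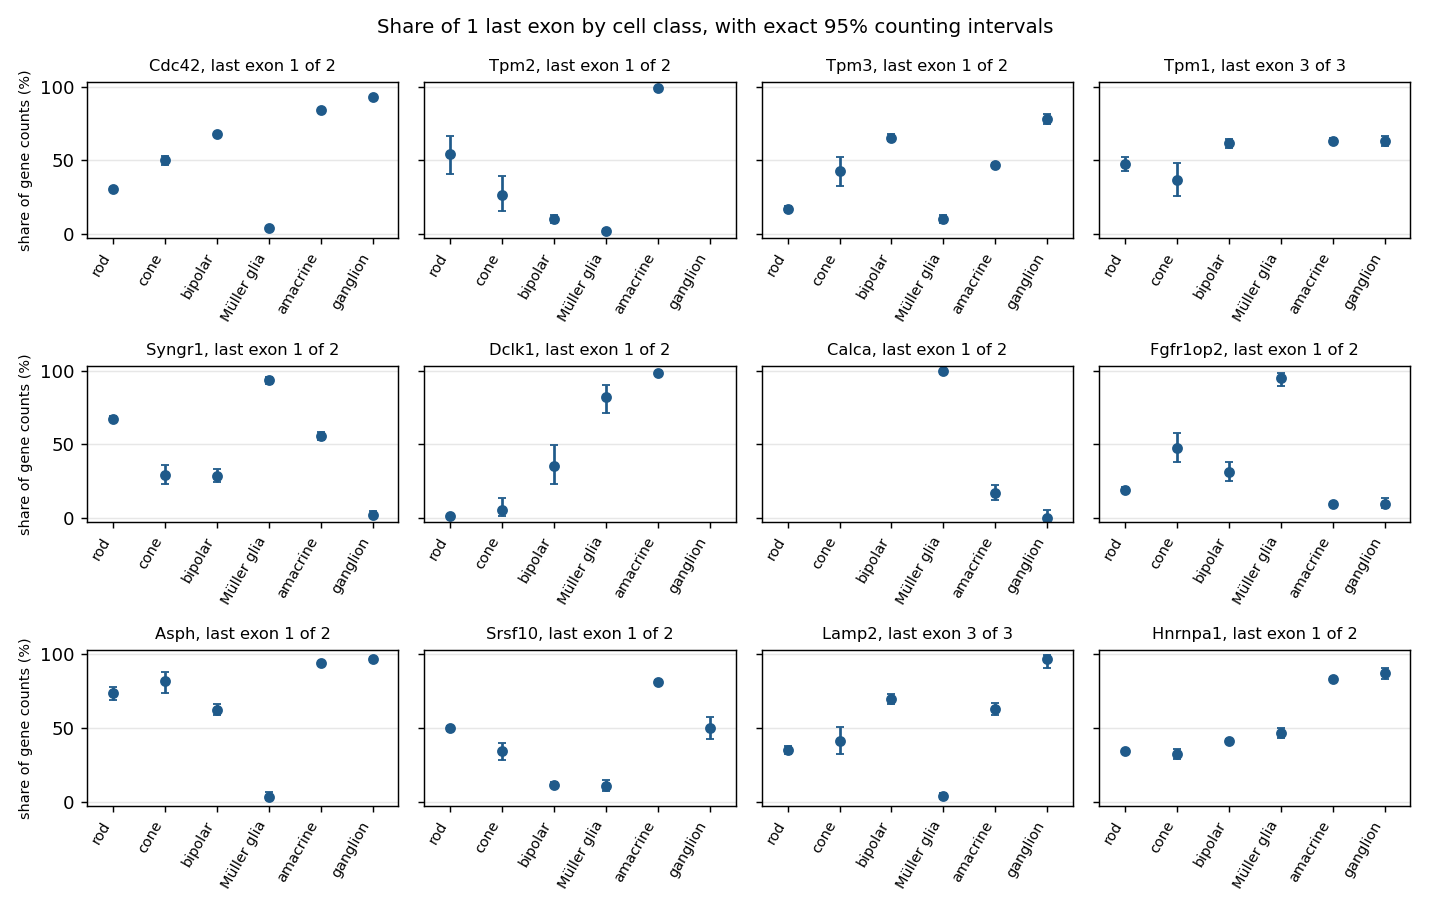
Points give the share of 1 last exon in a gene's counts (percent, y axis) in each cell class with 50 or more counts of the gene, and bars are exact 95% counting intervals. The proximal exon of Cdc42 runs from 3.8% in Müller glia to 92.7% in ganglion cells, and that of Tpm2 from 2.04% in Müller glia to 99.0% in amacrine cells.

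Dclk1, a doublecortin-like kinase that binds microtubules, had the largest difference between annotated spliced last exons among the genes with 200 counts in both classes. Last exon 1 (chr3:55466573-55467480, plus strand) held 98.4% of 835 counts in amacrine cells, and last exon 2 (chr3:55533570-55533876) held 99.0% of 1321 counts in rods. Last exon 1 held 82.2% in Müller glia (60 of 73 counts), 35.2% in bipolar cells (22.7 to 49.4%, 54 counts) and 5.41% in cones (1.49 to 13.3%, 74 counts). Photoreceptors were thus at 1 end, amacrine cells at the other. The isoform that led in rods matched an annotated non-coding transcript of 2 exons. A further 63 amacrine counts of Dclk1 belonged to isoforms without a model. Other cytoskeletal genes with a new leader were Map2 (72.2 points, amacrine cells and rods) and Map4 (86.4 points, the same classes). Pdlim5 (92.0 points, amacrine and bipolar cells) and Ank2 also had a new leader. In none of Map2, Map4, Pdlim5 and Ank2 were both leading last exons annotated and spliced. In Ank2 the last exon that begins as an internal exon held all 62 counts in ganglion cells and 33.9% of 59 in cones. With single-exon models included, Ank2 had 65 counts in ganglion cells and 186 in cones.

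At the synapse, Syngr1 differed by 91.2 points between Müller glia and ganglion cells. Its proximal last exon held 93.4% in Müller glia (90.7 to 95.5%, 456 counts), 67.4% in rods, 55.7% in amacrine cells, 29.0% in cones (23.0 to 35.7%, 210 counts) and 28.7% in bipolar cells. In ganglion cells it held 2.18% (0.805 to 4.69%, 275 counts). Rods and cones differed by more than their intervals for this gene, cones and bipolar cells did not. Homer1, a scaffold of the postsynaptic density, was led by the distal, long-form last exon in both classes compared, with 0 of 61 counts of the short-form exon in amacrine cells (up to 5.87%) and 38.1% of 63 counts in rods (26.1 to 51.2%). A further 14 amacrine counts of Homer1 had no model and are not in that limit. For Gphn, the glycine and GABA-A receptor anchor gephyrin, the annotated distal last exon held 84.3% in rods, 78.0% in cones, 35.9% in bipolar cells, 5.12% in amacrine cells and 0 of 51 counts in ganglion cells. The alternative exon of Gphn begins as an internal exon, without an annotated acceptor. Cd200, an immunoglobulin-family glycoprotein that restrains microglia, was chosen after its values were seen. Its distal last exon, which belongs to a protein-coding transcript but holds no coding sequence itself, held 93.5% in ganglion cells, 88.2% in amacrine cells, 58.5% in bipolar cells, 53.1% in Müller glia and 39.9% in rods (33.4 to 46.7%, 223 counts).

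**Figure D3:**
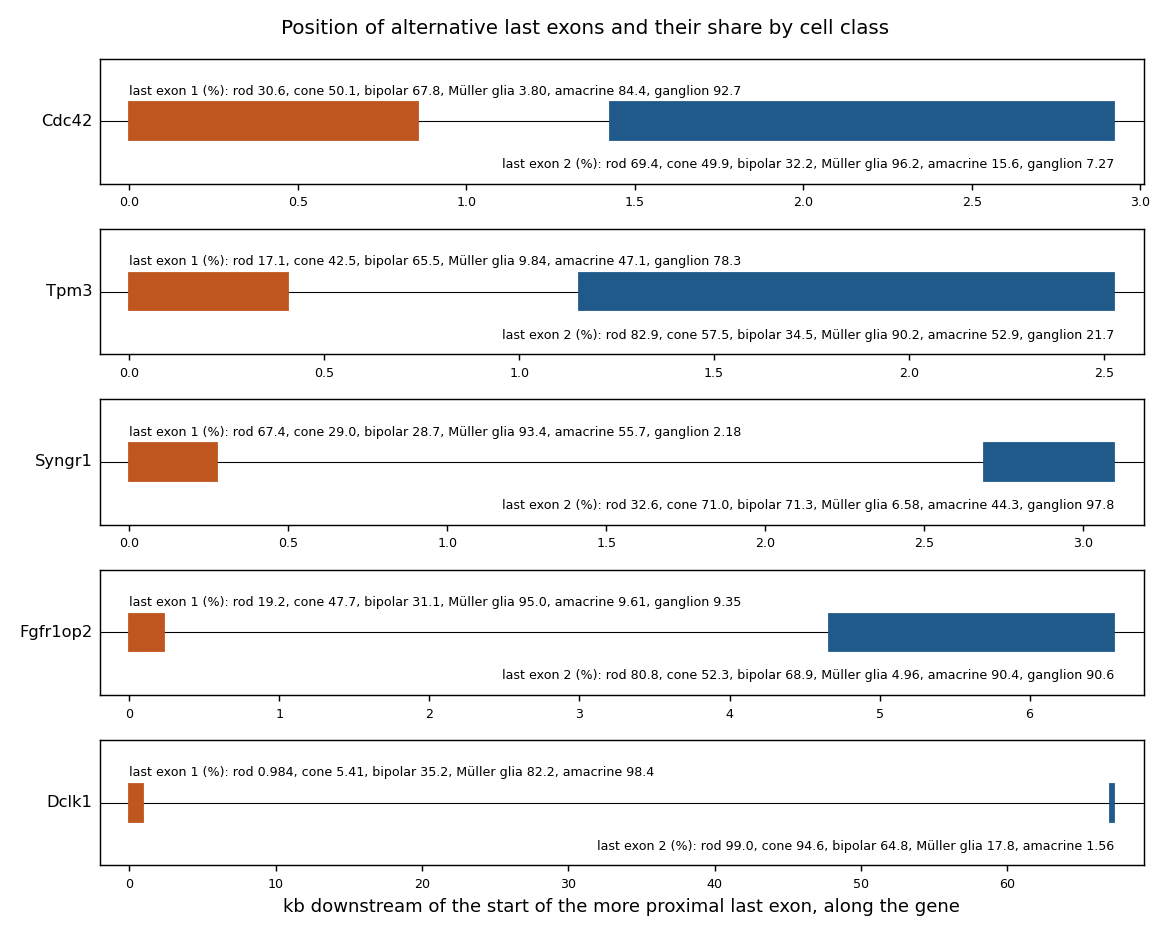
Boxes mark the 2 last exons of 5 genes, drawn to scale in kb along the direction of transcription from the start of the proximal exon, with the share of each exon per class written beside it. In Cdc42 the distal exon holds 96.2% in Müller glia and 7.27% in ganglion cells, and in Dclk1 it holds 99.0% in rods and 1.56% in amacrine cells.

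Müller glia differed from some or all of the other compared classes in Asph, Fgfr1op2, Ncam1, Slc1a2 and Calca. Asph encodes aspartate beta-hydroxylase in its long form and shorter proteins without the catalytic domain. The coding parts of its proximal and distal last exons are 245 and 8 nt long, and whether either is the end of the long form was not tested. The proximal last exon (chr4:9629921-9630952, minus strand) held 96.8% in ganglion cells, 94.0% in amacrine cells, 82.0% in cones, 73.5% in rods and 62.5% in bipolar cells. It held 2.87% in Müller glia (0.939 to 6.58%, 174 counts), where the distal exon led with 97.1%. Fgfr1op2 went the other way, with its distal exon at 4.96% in Müller glia (1.84 to 10.5%, 121 counts). Its proximal exon, which led there, held 47.7% in cones, 31.1% in bipolar cells, 19.2% in rods, 9.61% in amacrine cells and 9.35% in ganglion cells. The interval of Müller glia overlapped that of no other class in either gene.

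Ncam1, the neural cell adhesion molecule, was led in rods and cones by last exon 3 (92.1% of 629 and 89.1% of 92 counts), known as the end of the form with a lipid anchor. In Müller glia last exon 4, the end of a transmembrane form, held 61.9% (51.4 to 71.5%, 97 counts), against 2.07% in rods and 0 of 92 counts in cones. For Slc1a2, a glutamate transporter, the annotated spliced last exon 2 held 63.7% in Müller glia (54.6 to 72.2%, 124 counts) and 1.07 to 1.81% in rods, cones and bipolar cells, in which last exon 1, which starts as an internal exon and ends at an annotated 3′ end, held the rest. For Calca the calcitonin exon held all 178 counts of Müller glia (lower bound 97.9%), 16.8% of 232 counts in amacrine cells (12.2 to 22.3%) and 0 of 66 counts in ganglion cells (up to 5.44%). All 66 ganglion cell counts were on the calcitonin gene-related peptide side. In columns below the minimum of 50 counts the calcitonin exon also led, with 29 of 33 counts in rods and 6 of 7 in bipolar cells. A further 13 counts of Calca in the Müller glia column had no model. The pigment epithelium and microglia markers of that column, given above, were not separated from it.

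Genes for RNA-binding proteins were among those whose own last exon changed. Srsf10, a splicing factor, used its proximal exon (chr4:135863729-135865815, plus strand) for 81.1% of 3005 counts from amacrine cells, for 98 of 196 counts in ganglion cells, and for 49.8% in rods, 34.2% in cones, 11.5% in bipolar cells and 10.4% in Müller glia. The coding parts of its 2 last exons are 298 and 61 nt long. Celf2, a regulator of splicing and polyadenylation, had last exon 3 (chr2:6544807-6545675, minus strand) at 96.0% in cones, 86.5% in rods, 82.8% in Müller glia, 40.0% in bipolar cells and 18.2% in amacrine cells, where last exon 1, which begins as an internal exon, led with 52.9%. Hnrnpa1, a splicing repressor chosen after its values were seen, split the classes in 2 sets. Its proximal exon held 87.5% in ganglion cells and 83.6% in amacrine cells, and between 32.5% (cones) and 46.6% (Müller glia) in the other 4. The distal exon of Hnrnpa1 belongs to an annotated nonsense-mediated decay transcript.

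Amz2, a metalloprotease gene, showed the same order for amacrine and ganglion cells. Its proximal exon (chr11:109436563-109436989, plus strand) held 99.4% in ganglion cells (160 counts), 72.8% in amacrine cells, 48.8% in Müller glia, 27.9% in bipolar cells, 12.0% in rods and 4.42% in cones. The only isoform with the distal exon of Amz2 matched an annotated non-coding transcript of 2 exons. Apbb2, which encodes an adaptor of the amyloid precursor protein, had its distal exon (chr5:66301872-66302709, minus strand) at 99.0% in ganglion cells and 94.5% in amacrine cells, and at 16.6% in bipolar cells, 16.1% in rods and 15.3% in cones. The isoform with the most counts in this distal group matched an annotated non-coding transcript, and the proximal last exon of Apbb2 had no annotated stop codon. Ywhag, a 14-3-3 protein gene, kept its full-length coding last exon at 83.2% in amacrine cells, 71.0% in ganglion cells and 68.4% in rods, but at 19.3% in bipolar cells and 18.6% in cones (10.3 to 29.7%, 70 counts). The alternative exon of Ywhag belongs to an annotated non-coding transcript. Rods and cones differed in Ywhag by more than their intervals. Sfxn5, a mitochondrial carrier gene, was led by last exon 2 in amacrine cells (85.8% of 318 counts) and by last exon 3, the end of the 14-exon model, in Müller glia (89.8% of 639). Bipolar cells and rods used last exon 3 of Sfxn5 for 52.4% and 54.9%. Snhg14, a long non-coding RNA that hosts small nucleolar RNAs, had 4 main last exons. Its most proximal held 62.9% in rods (159 counts), 35.0% in bipolar cells, 9.3% in ganglion cells and 8.64% in amacrine cells, and its most distal of the 4 held 47.1% in ganglion cells. Snhg14 runs antisense to Ube3a, and whether the counting used strand is not given in the sources used here.

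Crb1, Rpgr and Casz1 also changed last exon between classes. Crb1, an apical polarity gene, had last exon 4 (chr1:139197539-139198787, minus strand) at 96.8% in amacrine cells (95 counts) and 78.6% in Müller glia (266 counts), but at 6.69% of 269 in rods. In rods last exon 2 of Crb1 (chr1:139239269-139241288), whose acceptor is not that of an annotated last exon, held 74.3% (68.7 to 79.5%), against 0 of 266 counts in Müller glia (up to 1.38%), where a further 16 counts had no model. Rpgr, a ciliary gene, had its annotated last exon at 52.4% of 166 counts in amacrine cells, 5.78% of 173 in bipolar cells and 3.55% of 479 in rods, and a further 33 amacrine counts of Rpgr had no model. Casz1, a zinc-finger transcription factor, had last exon 3 at 95.5% of 573 counts in amacrine cells. In rods, cones, bipolar cells and Müller glia last exon 1 of Casz1, the end of an annotated non-coding transcript of 3 exons, held all counts or, in rods and cones, 97.3 and 97.6%.

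Lamp2 had 3 spliced last exons with annotated acceptors and coding parts of nearly equal length (140, 140 and 143 nt), and was chosen after its values were seen. It encodes a lysosomal membrane protein, and its last exon 2 is that of the form known for chaperone-mediated autophagy. Last exon 3 (chrX:38401226-38402281, minus strand) held 96.7% in ganglion cells (90.6 to 99.3%, 90 counts), 69.9% in bipolar cells, 63.2% in amacrine cells, 41.5% in cones, 35.2% in rods and 3.65% in Müller glia (2.1 to 5.86%, 438 counts). Last exon 2 went in the opposite order at the ends, at 55.0% in Müller glia, 39.0% in cones, 38.5% in rods, 20.8% in amacrine cells, 17.3% in bipolar cells and 0 of 90 counts in ganglion cells (up to 4.02%). Last exon 1 held 41.3% in Müller glia and 3.33% in ganglion cells. Rods and cones were not separated for any of the 3 exons.

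Among the members with the most counts, 3 of those described here hardly changed. Ndufa5, a subunit of respiratory complex I, had 1 last exon at or above 99.9% in all 6 columns. Hbb-bs, a beta globin gene with a near-identical copy, had 99.3% or more in the 5 columns with counts. Ebpl, a sterol isomerase-like gene, had 99.9% or more in 5 columns and 95.1% in ganglion cells (92.1 to 97.2%, 308 counts). Polr1d, a subunit shared by RNA polymerases, was also among the genes with the most counts, and its shares varied. Its proximal exon held from 39.6% in Müller glia and 40.4% in bipolar cells to 71.1% in ganglion cells (69.0 to 73.0%, 2039 counts), and rods (58.0%) and cones (56.1%) had overlapping intervals.

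Some genes used more than 1 last exon in every class. There were 17 members with 200 or more counts in all 6 columns and a second last exon of 20% or more. The 4 with the smallest change are described here, of which Acbd6 (30.4 points) and Snrnp48 (27.9 points) still differed by the rule of 25 points. The proximal exon of Ak6, a nuclear adenylate kinase whose locus overlaps Taf9, held between 70.7% (ganglion cells) and 84.8% (cones). That of Fam220a held between 49.8% (amacrine cells) and 72.2% (cones). For Acbd6, an acyl-CoA-binding protein with 3 last exons, it held between 32.0% (Müller glia) and 58.7% (amacrine cells). The last exon 1 of Snrnp48, a protein of the minor spliceosome, belongs to an annotated retained-intron transcript and held between 54.2% in Müller glia and 80.5% in amacrine cells. The leading exon differed between amacrine cells and cones in Fam220a and between amacrine cells and Müller glia in Acbd6. In Fam220a amacrine cells were near a tie, with 4180 against 4216 counts.

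Gene lists were compared by count with the 40.5% of all genes that differed. Of 24 compared genes with known alternative last exons, 18 differed, with a median largest difference of 54.7 points against 19.5. Those that did not included Gfap, Ank3, Prkg1, Mapk10 and Rbfox1. This list was drawn up because its members are known for the event and is no independent evidence. Of 17 cytoskeletal genes 11 differed (64.7%), and Map1b, Kif1a, Dync1i1, Ank3, Myo6 and Mtus1 did not. Of 14 channel and transporter genes 9 differed (64.3%), with Cacnb2, a calcium channel subunit, at 86.1 points between amacrine cells and rods and Slc12a5, the neuronal potassium-chloride cotransporter, at 62.8 points between amacrine and bipolar cells. Of 7 adhesion genes 4 differed (57.1%): Ncam1, Cntn1, Nptn and Ptprd. The cilium and photoreceptor list had 5 of 11 (45.5%), the synapse list 5 of 13 (38.5%), the RNA-binding and 3′ processing list 8 of 22 (36.4%) and the kinase and GTPase list 4 of 12 (33.3%). The last 3 were near the share of all genes. Members of the known list made up 5 of the 11 cytoskeletal genes that differed, 3 of the 9 channel and transporter genes and 2 of the 4 adhesion genes. In the synapse list Dlg2, a postsynaptic scaffold, changed by 98.4 points between amacrine cells and rods, and Amph, an endocytic protein, by 78.5 points between amacrine and bipolar cells. Cpsf6, a subunit of the cleavage factor that promotes distal polyadenylation, changed its own last exon by 82.5 points between Müller glia and ganglion cells. In none of Cacnb2, Slc12a5, Dlg2, Amph and Cpsf6 were both leading last exons annotated and spliced.

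A shift along the gene in 1 direction was not general. Where the share of the most distal last exon changed by 25 points or more between amacrine cells and rods, it was higher in amacrine cells in 149 genes and higher in rods in 140. Müller glia had the higher distal share in 53 genes and rods in 19. Against amacrine cells Müller glia were higher in 69 genes and lower in 37, against bipolar cells higher in 47 and lower in 22, and against cones higher in 36 and lower in 17. Against ganglion cells the counts were 26 and 19. Over the 248 genes with counts in every column the median distal share was 37.0% in Müller glia, 32.3% in bipolar cells, 25.9% in rods, 25.8% in cones, 23.9% in amacrine cells and 23.1% in ganglion cells. The intervals of these medians over genes were wide and overlapped, for example 15.6 to 52.6% in Müller glia and 15.6 to 50.2% in amacrine cells. The order was not stable: with a minimum of 100 counts the median was 20.5% in Müller glia and 24.5% in bipolar cells, and without groups within or starting as an internal exon it was 18.3 and 24.6%.

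Last exons were also compared with first exons, counted by the same rule. By first exon 725 of 1846 compared genes differed (39.3%). These 1846 were drawn from 3229 genes with alternative first exons and are not the same set as the 1846 compared by last exon. Of the genes that differed by last exon 266 also differed by first exon, which was 35.6% of the last-exon genes and 36.7% of the first-exon genes. Both shares are over all genes that differed, including those not compared by the other kind of exon. The share among genes compared by both was not computed, so the overlap cannot be set against the share of all genes that differed. Cones and rods (9.73%) and amacrine and ganglion cells (9.76%) were the lowest pairs by first exon, and amacrine cells and rods (27.9%) the highest. Bipolar cells and cones differed in 14.6% of genes by first exon and in 10.5% by last exon.

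**Figure D4:**
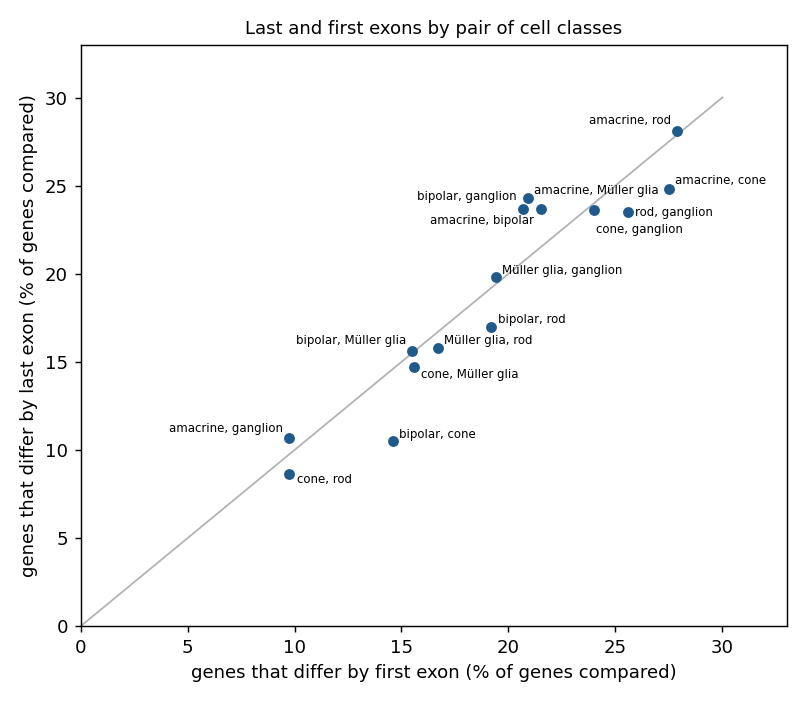
Each point is a pair of cell classes, with the percentage of genes that differ by first exon on the x axis and by last exon on the y axis, and the grey line marks equal values. The pairs lie from cones and rods at 9.73 and 8.65% to amacrine cells and rods at 27.9 and 28.1%.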

How the data were processed

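Single-cell cDNA from 4 retinal libraries was read by nanopore sequencing. The authors deposited a table of isoform counts per cell class and the isoform models, whose names follow the FLAIR format per the file contents. The build is mm10 per the submitters' processing notes. The aligner, the caller and any collapse of reads to molecules are not given in the sources used here. Models were present for exactly those isoforms with at least 1 rod count, so 7899 of 44325 isoforms had none, which held from 0% (rods) to 1.93% (amacrine cells) of the members' counts.

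Last exons were grouped by overlap per gene and strand, and counts were summed per group with Python 3.11.15, pandas 2.3.3 and numpy 2.4.6. Columns with 50 or more counts of the gene were compared by a rule of size (25 points, or 50 points with another leader), with exact binomial intervals from scipy 1.17.1. Acceptors, ends and sequences came from GENCODE M21. The script was tested on simulated data. The members and lists were chosen with earlier results of these data known. Genes were named by rule: the 10 largest differences with 200 counts in both classes, the 2 largest per class with 100 counts (both between annotated spliced last exons), the 5 members with the most counts, the 4 with 200 counts in all classes and the smallest change, and the list of known alternative last exons. Exceptions are marked, and some genes that the rule names are not reported here. No sample was left out. Alternatives varied the count minimum, the threshold, the grouping, the isoforms and the depth.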

Additional observations from a re-analysis of the deposited data

Results flagged for a closer look

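These values come from isoforms in the count table that had no deposited model and so entered no comparison. Their last exons were placed by the GENCODE M21 annotation. Grm8, a metabotropic glutamate receptor, had 364 counts in a last exon of this kind, 346 of them in amacrine cells (59.6% of the gene's counts there, 55.4 to 63.6%). Fut9, a fucosyltransferase, had 258 counts, 250 of them in amacrine cells (87.1%). Dcx, the microtubule-binding protein doublecortin, had 164 counts, with 141 of 142 amacrine counts of the gene. Rims2, a presynaptic active zone protein, had 142 counts, 140 of them in amacrine cells (87.0%). Emb, an adhesion and transporter-associated glycoprotein, had 139 counts, 107 of them in amacrine cells, which were 3.43% of the gene's amacrine counts. Rods had 0 counts in each, since a model exists only where rods had a count.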

How the results depend on the processing

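No difference of a named gene changed sign. The order of the distal medians did turn, from 37.0% in Müller glia and 32.3% in bipolar cells to 20.5 and 24.5% with a minimum of 100 counts and 18.3 and 24.6% without groups within or starting as an internal exon. The 748 genes that differed became 1409, 418 and 99 with a minimum of 20, 100 and 500 counts, 1309 and 246 with a threshold of 10 and 50 points, 188 with Ensembl isoforms only, 263 without groups within or starting as an internal exon, 162 with thinned columns and 417 without the amacrine column. For the same settings the 240 genes with another leader became 590, 137, 29, 450 (25 points), 77, 108, 58 and 125, and 68 between annotated spliced exons. The 8.65% of genes for cones and rods became 14.1, 5.67, 0.0, 32.2, 1.06, 6.48, 5.71 and 4.84%, with 12.5% where the second exon held 5% or more and 3.63% over genes counted in all columns. The median pair, 19.8%, became 27.3, 14.5, 8.51, 40.5, 5.22, 32.4 (second exon) and 14.9% (genes in all columns). Fewer genes or counts were tested under the higher minima, the Ensembl restriction and thinning; the cause of other changes was not tested. Grouping by acceptor, isoforms with 10 counts, added single-exon models, annotation-placed isoforms, and leaving out ganglion cells kept all 4 within 1.5 times or their interval, and each distal median stayed within its wide interval under the 3 alternatives. The settings with separate intervals (748 genes), with a second exon of 5%, over genes counted in all columns, without the amacrine column and between annotated spliced exons were chosen after seeing the data. Of 47 named genes 46 and 47 were stable under acceptor grouping and added single-exon models (Rpgr moved to 38.4 points), and Tpm3 and Asph moved with Ensembl isoforms. Only 23 of the 47 had a value with Ensembl isoforms, and 23, all stable, with thinned columns. The check for A-rich sequence downstream was not run without a genome. No paired analysis was possible because no column can be tied to a library, and no replicate could be left out. Depth limits ganglion cells most: 367 members had 50 counts there, against 2283 in rods.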

Other observations

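Further genes changed their leading last exon between annotated spliced exons and were chosen after their values were seen. Tmod3, which caps actin filaments, differed by 84.7 points between cones (85 counts) and ganglion cells (615 counts), with more of the distal exon in cones. Trio, a guanine nucleotide exchange factor, differed by 80.7 points between amacrine cells (411 counts) and bipolar cells (115), and Atat1, the tubulin acetyltransferase, by 79.1 points between amacrine cells (434) and Müller glia (134). Pde4b, a cyclic AMP phosphodiesterase, differed by 63.8 points between amacrine cells (430) and rods (155), and Rabgap1l by 65.2 points between rods (218) and ganglion cells (158). Of the 68 genes with such a change, the largest difference lay between amacrine cells and rods in 15, amacrine and bipolar cells in 11, and Müller glia and either amacrine or ganglion cells in 9 each. The members compared numbered 1452 for amacrine cells and rods and 1302 for amacrine and bipolar cells. They numbered 506 for Müller glia and amacrine cells and 268 for Müller glia and ganglion cells, so these counts do not rank the pairs.

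Last-exon groups made only of isoforms without a model numbered 201 when placed by the annotation. In Cacna2d4, a calcium channel subunit, 396 of 400 amacrine counts had no model.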
